A study of Homo sapiens with 2 samples.

Results

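The genes described here are the translation elongation factors EEF1A1, EEF1B2, EEF1D, EEF1G and EEF2, the kinase EEF2K and RP11-371A22.1, an annotated pseudogene of EEF1G. They were taken by symbol from the deposited table, and all 7 were found among 23321 genes. The list was chosen by the measured difference of the pseudogene between these same libraries, the largest rise of any gene, to which its parent, the other eEF1 genes, EEF2 and EEF2K were added by function. The difference of the pseudogene is therefore a description and no evidence in itself. RNA came from AGS, an established cell line from a human gastric adenocarcinoma, in 2 groups of 1 library each: cells stably transfected with a GGT7 plasmid, labelled GGT7 ectopic expression, and cells stably transfected with a negative control plasmid, labelled WT. GGT7 is a member of the gamma-glutamyltransferase family, and both groups were taken at 2 weeks, from culture in DMEM with fetal bovine serum. The sources used here do not say whether each line was a clone or a pool.

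The table gave 10289206 counts for the GGT7 library and 13482913 for the control library. GGT7 itself had 470 counts in the GGT7 library and 90 in the control library. Of the 7 epithelial markers listed, 6 were in the table. KRT18 had 117 FPKM in the GGT7 library and 111 in the control library, and KRT8 had 45.4 and 70.0 FPKM in the same order. MUC1 had 1201 counts in the GGT7 library and 1778 in the control library, and CLDN4 344 and 412, in the same order. EPCAM had 69 counts in the GGT7 library and 132 in the control library. CDH1, with 116 and 94 counts in that order, was below 1 FPKM in both. The FPKM of CDH1 rests on a length of 14467 bases, against 6177 bases when overlapping exons are merged. In both libraries EPCAM and CDH1 had fewer counts than COL1A1, LUM and CDH5, markers of other cell types given below. Markers of other cell types were low but not absent. Of the 3 leukocyte markers listed, 2 were in the table, with a summed level, scaled to the library totals (CPM), of 29 CPM in the GGT7 library and 5.56 CPM in the control library. PTPRC, the general leukocyte marker, had 5 counts in each library, whereas CD68, a lysosomal protein of macrophages that other cells also express, had 293 counts in the GGT7 library and 70 in the control library, 5.48-fold higher (4.21 to 7.23). Of the 4 fibroblast markers listed, 3 were in the table, with a sum of 40.8 CPM in the GGT7 library and 57 CPM in the control library. COL1A1 had 214 counts in the GGT7 library and 431 in the control library, LUM 201 and 330, and DCN 5 and 8, in the same order. All 3 endothelial markers were in the table, with a sum of 22.2 CPM in the GGT7 library and 24.6 CPM in the control library. CDH5 had 209 counts in the GGT7 library and 318 in the control library, PECAM1 17 and 13, and VWF 2 and 1, in the same order. The part of such cells in the values below was not tested. As each group is a single library, no difference below has a replicate check or a p-value. Intervals are exact 95% intervals for counting error alone, and reads that carry no molecular identifier cannot be taken as independent molecules. In RNA from a whole culture, a change in the share of cells that carry a transcript and a change in RNA per cell cannot be told apart.

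During elongation, eEF1A bound to GTP brings each aminoacyl-tRNA to the ribosome, and the eEF1B complex reloads it with GTP. EEF1B2 and EEF1D encode the exchange factors of that complex, and EEF1G encodes the subunit that anchors it. EEF2 encodes the translocase that moves the ribosome along the mRNA, and EEF2K encodes the calcium- and calmodulin-dependent kinase that phosphorylates and inhibits eEF2. The mRNAs of the factors belong to the most abundant in dividing cells, and such mRNAs have given rise to many processed pseudogenes, intronless copies made by reverse transcription.

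RP11-371A22.1 (ENSG00000283041, named AC008038.1 in GENCODE 29) lies on GRCh38 chromosome 7, 133034607 to 133035920, minus strand, as a single exon of 1314 bases. It is annotated as a processed pseudogene. Its parent EEF1G (ENSG00000254772) lies on chromosome 11, 62559601 to 62574086, minus strand, and its reference transcript has 10 exons. The pseudogene covers the whole coding sequence of EEF1G, which is also 1314 bases long, with no insertion or deletion. The alignment held 10 substitutions, an identity of 99.2%. The annotated copy starts with a start codon, ends with a stop codon and has no stop codon in frame before it, over 438 codons. Counted from base 1 of the coding sequence, with the base of EEF1G first and that of the pseudogene last, the substitutions are G85A, C139T, C150T, A545G, C554G, C615G, G619C, A675G, C1218A and G1296C.

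The following stretches hold all 10 substitutions and are shown because they are the only bases by which a read from the coding sequence can be told apart. They are read 5′ to 3′ from GENCODE 29 transcripts, in lower case with the differing bases in capitals. Bases 71 to 160 lie at chr7:133035761-133035850 in the pseudogene and in exon 2 of EEF1G at chr11:62572595-62572684.
RP11-371A22.1: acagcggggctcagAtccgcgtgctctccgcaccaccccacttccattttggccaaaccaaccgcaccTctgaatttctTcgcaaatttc
EEF1G: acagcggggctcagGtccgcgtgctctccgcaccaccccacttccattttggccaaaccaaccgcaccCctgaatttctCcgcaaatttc
Bases 536 to 685 hold 5 of the 10 substitutions. They lie at chr7:133035236-133035385 in the pseudogene and span exons 6 and 7 of EEF1G.
RP11-371A22.1: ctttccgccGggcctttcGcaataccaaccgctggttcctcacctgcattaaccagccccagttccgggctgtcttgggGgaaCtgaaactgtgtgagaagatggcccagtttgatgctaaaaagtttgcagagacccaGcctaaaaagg
EEF1G: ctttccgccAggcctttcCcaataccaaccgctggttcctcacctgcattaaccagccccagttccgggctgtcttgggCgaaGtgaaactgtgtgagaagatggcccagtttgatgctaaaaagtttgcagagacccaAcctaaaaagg
Bases 1207 to 1306 hold the last 2, at chr7:133034615-133034714 in the pseudogene and in exon 10 of EEF1G at chr11:62559687-62559786.
RP11-371A22.1: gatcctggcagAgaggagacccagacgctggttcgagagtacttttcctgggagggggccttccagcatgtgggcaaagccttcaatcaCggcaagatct
EEF1G: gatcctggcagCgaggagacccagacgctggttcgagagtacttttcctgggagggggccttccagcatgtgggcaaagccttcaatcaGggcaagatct

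Between substitutions A675G and C1218A, 542 bases of the pseudogene are identical to EEF1G. Of all windows of 50 bases in the pseudogene, 72.9% occur letter for letter in an EEF1G transcript. The share was 60.7% for windows of 100 bases and 54.8% for windows of 150 bases. The sources used here give neither the read length nor the treatment of reads with several matches, and the part of read assignment in the values below was not tested.

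**Figure D1:**
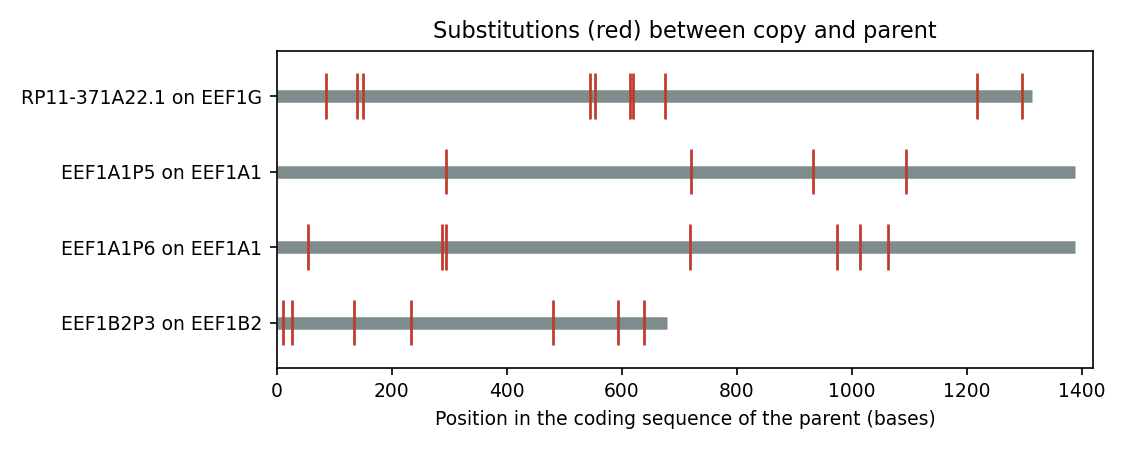
Substitutions (red marks) between 4 pseudogene copies and the coding sequence of their parent, by position in bases from the start codon; grey bars span the coding sequence. RP11-371A22.1 has 10 marks with a gap of 542 identical bases, EEF1A1P5 has 4, EEF1A1P6 and EEF1B2P3 have 7 each.

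RP11-371A22.1 had 3939 counts in the GGT7 library and 35 in the control library. Its deposited level was 291 FPKM in the GGT7 library and 1.98 FPKM in the control library, 147-fold higher (106 to 212) in the GGT7 library. By counts it was rank 314 of all genes in the GGT7 library and rank 13175 in the control library. Among processed pseudogenes it was rank 7 in the GGT7 library and rank 411 in the control library. The log2 difference of (FPKM + 1), the scale used for all differences here, was 6.62, rank 1 among 14215 measured genes, those that reached 1 FPKM in the library where they were higher. The next on that scale, just outside the rule that chose it, was the read-through gene RPL17-C18orf32 at 3.30, and the one after it IL1A at 2.99. RP11-371A22.1 was the only member of 7 past 2-fold, a size that 2.02% of all measured genes reached, 0.858% upward and 1.16% downward. It was chosen for that value, so nothing is read from the count. Of 1014 measured processed pseudogenes, 0.888% were higher by 2-fold or more and 2.47% were lower by as much.

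EEF1G, the parent, had 1935 counts in the GGT7 library and 2445 in the control library. Its level was 54.2 FPKM in the GGT7 library and 52.3 FPKM in the control library. Scaled to the library totals this was 1.04-fold, with an interval from 0.977 to 1.10 that includes no change. The pseudogene and its parent together had 5874 counts in the GGT7 library and 2480 in the control library. Scaled to the library totals the sum was 571 CPM in the GGT7 library and 184 CPM in the control library, 3.10-fold higher (2.96 to 3.25). The sum does not depend on how counted reads were divided between these 2 features. Of it, the pseudogene held 67.1% (65.8 to 68.3) in the GGT7 library and 1.41% (0.985 to 1.96) in the control library. As the reads were counted, the level of EEF1G stood near that of the control, and the higher sum lay on the pseudogene. From which of the 2 features those reads came was not tested.

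**Figure D2:**
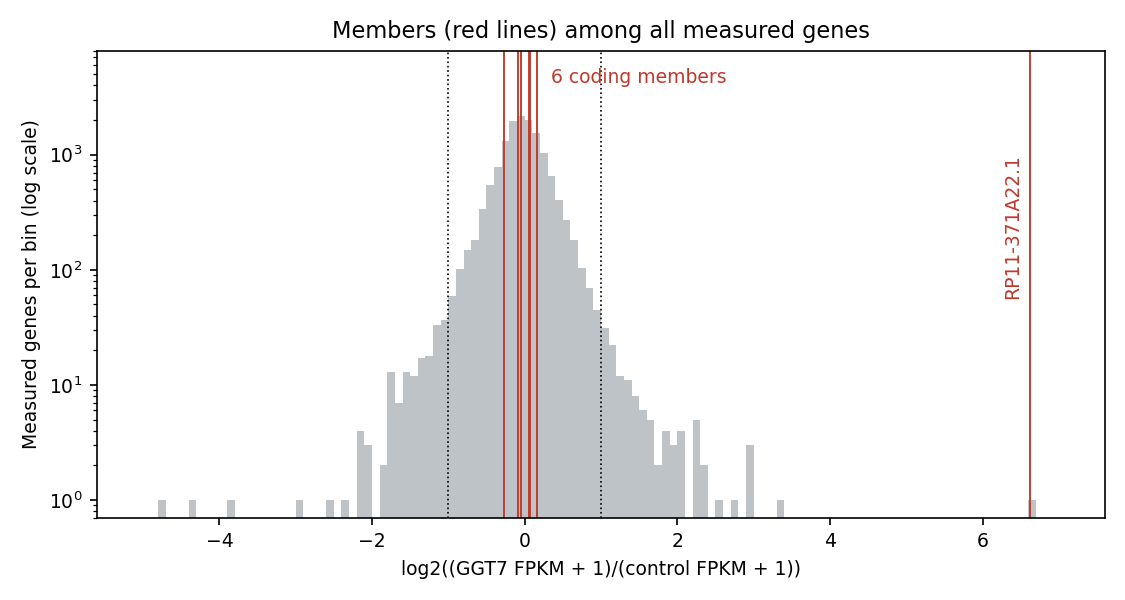
Histogram of log2((GGT7 FPKM + 1)/(control FPKM + 1)) over 14215 measured genes, with a log vertical axis, dotted lines at 2-fold and red lines for the members. The 6 coding members lie between -0.27 and 0.17, and RP11-371A22.1 lies alone at 6.62.

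Other features share sequence with this pair or bear the name of EEF1G. EEF1GP5, a processed pseudogene on chromosome X with 94.1% identity to the EEF1G coding sequence, had 42 counts in the GGT7 library and 33 in the control library, 1.67-fold higher (1.03 to 2.72). Of its windows of 100 bases, 0% occur in EEF1G, against the 60.7% of RP11-371A22.1. EEF1GP1 had 10 counts in the GGT7 library and 7 in the control library, and EEF1GP2 had 1 in each. EEF1GP1 and EEF1GP2 did not meet the rule for copies given below, and their shared sequence is not given here. The locus RP11-864I4.1 (AP002990.1 in GENCODE 29), which overlaps EEF1G on the same strand and extends beyond it to position 62591531, shares 99.9% of the exonic bases of EEF1G. It had 22 counts in the GGT7 library and 4 in the control library, 7.21-fold higher (2.45 to 28.8), though below 1 FPKM in both. How reads in the shared bases were counted is not stated, so the level of EEF1G is uncertain.

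On chromosome 7, RP11-371A22.1 lies inside CHCHD3, on the same strand. CHCHD3 encodes a protein of the mitochondrial inner membrane that helps to shape the cristae. An annotated CHCHD3 transcript reaches into the pseudogene and shares 172 exonic bases with it. CHCHD3 had 689 counts in the GGT7 library and 1340 in the control library, at 9.65 FPKM and 14.3 FPKM in the same order, 1.48-fold lower (1.35 to 1.63). The host gene was thus lower in the GGT7 library, where the pseudogene within it was higher. Any link between these levels, and the part of reads in the shared bases, was not tested. The microRNA gene MIR3654 is annotated over 56 bases of the pseudogene.

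Among the factors themselves, EEF1A1 (ENSG00000156508) lies on the minus strand of chromosome 6, from 73515750 to 73523797, and had 11047 counts in the GGT7 library and 12871 in the control library. This was 83.4 FPKM in the GGT7 library and 74.1 FPKM in the control library, 1.12-fold higher (1.10 to 1.15). EEF1B2 (ENSG00000114942), on the plus strand of chromosome 2 from 206159585 to 206162928, had 1813 counts in the GGT7 library and 2253 in the control library, which gave 34.6 and 32.8 FPKM in the same order, 1.05-fold (0.991 to 1.12). EEF1D (ENSG00000104529), on the minus strand of chromosome 8 from 143579697 to 143599541, had 2221 counts in the GGT7 library and 3124 in the control library, or 7.64 and 8.20 FPKM in the same order, 1.07-fold lower (1.02 to 1.13). All 3 lay close to the control once the library totals were taken into account, and at that scaling the interval of EEF1B2 includes no change.

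EEF2 (ENSG00000167658), on the minus strand of chromosome 19 from 3976056 to 3985469, was the coding member with most counts, 13431 in the GGT7 library and 18206 in the control library. At 243 FPKM in the GGT7 library and 252 FPKM in the control library it was 1.03-fold lower (1.01 to 1.06). EEF2K (ENSG00000103319), on the plus strand of chromosome 16 from 22206282 to 22288732, had 901 counts in the GGT7 library and 1450 in the control library. Its level was 9.36 FPKM in the GGT7 library and 11.5 FPKM in the control library, 1.23-fold lower (1.13 to 1.34), the largest difference among the coding members. On the log2 scale EEF2K was at -0.27, and 81.3% of measured genes lay above it.

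None of the 6 coding members reached 1.5-fold in either direction, a size reached by 8.86% of all measured genes, 3.9% upward and 4.97% downward. Most genes thus lay within that limit, as the members did. Their log2 differences had a median of 0.00, against -0.03 over all measured genes, with 3 above 0 and 3 below 0. The ratios of the 4 eEF1 subunits lay between 0.932 and 1.12, while that of the sum of EEF1G and its pseudogene was 3.10.

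**Figure D3:**
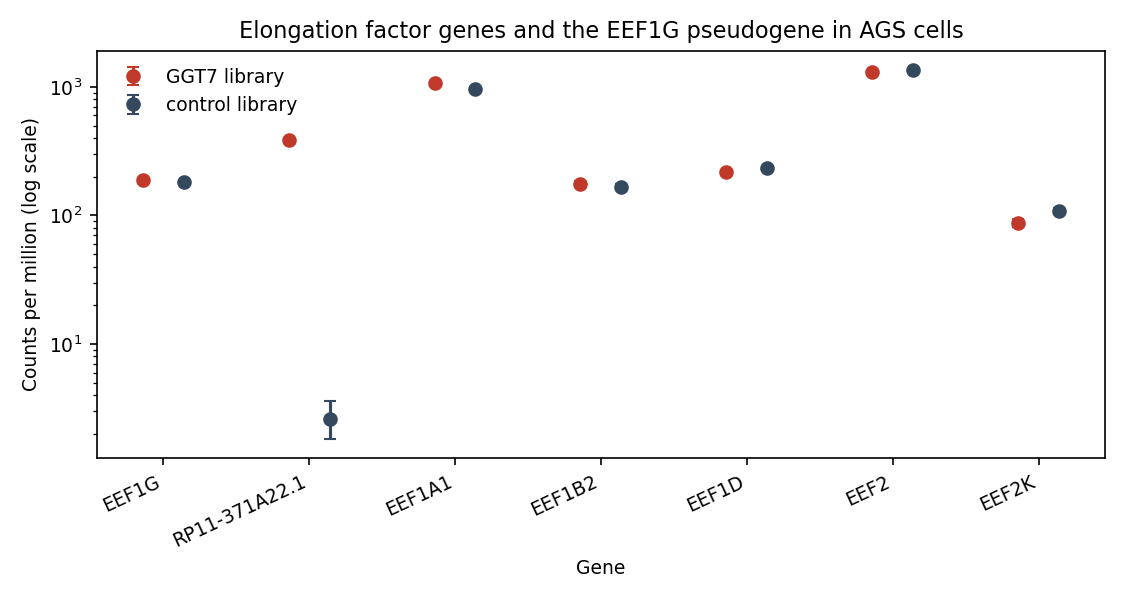
CPM of the 7 members on a log axis, GGT7 library (red) left of control library (dark), 1 library each; bars are exact 95% Poisson intervals, mostly smaller than the points. The pairs of the 6 coding members sit side by side, whereas RP11-371A22.1 is at 383 in the GGT7 library and 2.60 in the control library.

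The deposited FPKM cannot be used to compare members with each other. In 86.4% of 11714 well counted genes the length behind it matched, within 1%, the sum of all distinct annotated exons of GENCODE 29, in which overlapping exons are counted repeatedly. For EEF1D this length was 28257 bases and for EEF1A1 12875 bases, against reference transcripts of 2378 and 2303 bases, while for the single-exon pseudogene it was its own 1314 bases. In CPM per kilobase of the reference transcript, EEF1A1 stood at 466 in the GGT7 library and 415 in the control library, and EEF2 at 413 and 427 in the same order. On this scale of level RP11-371A22.1 was at 291 in the GGT7 library and 1.98 in the control library. EEF1B2 was at 209 in the GGT7 library and 198 in the control library, EEF1G at 123 and 119, EEF1D at 90.8 and 97.4, and EEF2K at 11.9 and 14.6, all in that order. In the GGT7 library the pseudogene thus ranked below EEF1A1 and EEF2 and above the 3 other subunits of the complex, and in the control library it ranked last. The scale assumes that all counts came from the reference transcript and makes no correction for shared reads.

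Copies of the other members give a setting for the pseudogene. At 90% identity over 30% of the coding sequence or more, GENCODE 29 holds 22 pseudogene copies of EEF1A1, 6 of EEF1B2, 2 of EEF1D and 2 of EEF1G, and 9, 2, 2 and 2 of them, in that order, were in the deposited table. EEF2 and EEF2K had none. Among the copies of EEF1A1, EEF1A1P5 on chromosome 9 (133019486 to 133020874, plus strand) differs from the coding sequence by 4 substitutions, T294C, T720C, T933G and C1094T, an identity of 99.7%. It is shown because it had more counts than its parent in both libraries, with a stretch around T933G at chr9:133020373-133020462 and the same bases in exon 6 of EEF1A1 at chr6:73518406-73518495.
EEF1A1P5: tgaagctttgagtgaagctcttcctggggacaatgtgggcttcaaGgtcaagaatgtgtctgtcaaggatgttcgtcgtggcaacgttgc
EEF1A1: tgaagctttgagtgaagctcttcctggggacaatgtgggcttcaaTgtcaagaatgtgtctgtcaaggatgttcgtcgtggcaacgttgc
EEF1A1P5 had 19123 counts in the GGT7 library and 21887 in the control library, 1.14-fold higher (1.12 to 1.17). EEF1A1P6, with 99.4% identity, had 2476 counts in the GGT7 library and 2908 in the control library, 1.12-fold higher (1.06 to 1.18). Both ratios were close to the 1.12-fold of the parent.

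EEF1A1P13, with 98.1% identity, had 367 counts in the GGT7 library and 353 in the control library, 1.36-fold higher (1.17 to 1.58). EEF1A1P19 had 25 counts in the GGT7 library and 60 in the control library, 1.83-fold lower (1.13 to 3.05). EEF1A1P3, EEF1A1P9 and EEF1A1P11 had 19 to 21 counts in the GGT7 library and 20 to 31 in the control library, with intervals that include no change. EEF1A1P10 and EEF1A1P12, which were below 1 FPKM, had 10 and 1 counts in the GGT7 library and 10 and 2 in the control library. EEF1A1P30, which did not meet the rule for copies, had 22 counts in the GGT7 library and 35 in the control library.

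EEF1B2P3, a copy on chromosome X with 99.0% identity and 7 substitutions, had 208 counts in the GGT7 library and 221 in the control library, 1.23-fold higher (1.02 to 1.5). EEF1B2P6, at 97.8%, had 64 counts in the GGT7 library and 77 in the control library, 1.09-fold (0.769 to 1.54). Among the copies of EEF1D, EEF1DP1 had 9 counts in the GGT7 library and 15 in the control library, and EEF1DP2 had 7 and 6, in the same order. EEF1DP7, which did not meet the rule for copies, had 3 counts in the GGT7 library and 8 in the control library. These small counts give intervals that include no change. EEF1E1P1, a pseudogene of EEF1E1, had 5 counts in the GGT7 library and 2 in the control library.

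Counted over whole families, the copies of EEF1A1 held 66.6% (66.1 to 67.1) of the counts of the family in the GGT7 library and 66.3% (65.8 to 66.7) in the control library. The copies of EEF1B2 held 13% (11.6 to 14.6) in the GGT7 library and 11.7% (10.5 to 13) in the control library, and those of EEF1D 0.715% (0.409 to 1.16) and 0.668% (0.414 to 1.02) in the same order. The copies of EEF1G held 67.3% (66.1 to 68.5) in the GGT7 library and 2.71% (2.11 to 3.42) in the control library. The intervals of the 2 libraries overlap for EEF1A1, EEF1B2 and EEF1D and lie far apart for EEF1G. In the GGT7 library, 3939 of the 3981 counts on copies of EEF1G were those of RP11-371A22.1, the feature chosen for its rise. The distance for EEF1G thus follows from that choice and is a description only. With parent and copies summed, EEF1A1 was 1.14-fold higher (1.12 to 1.15), EEF1B2 1.07-fold higher (1.01 to 1.14), EEF1D 1.07-fold lower (1.02 to 1.13) and EEF1G 3.08-fold higher (2.94 to 3.23) in the GGT7 library.

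**Figure D4:**
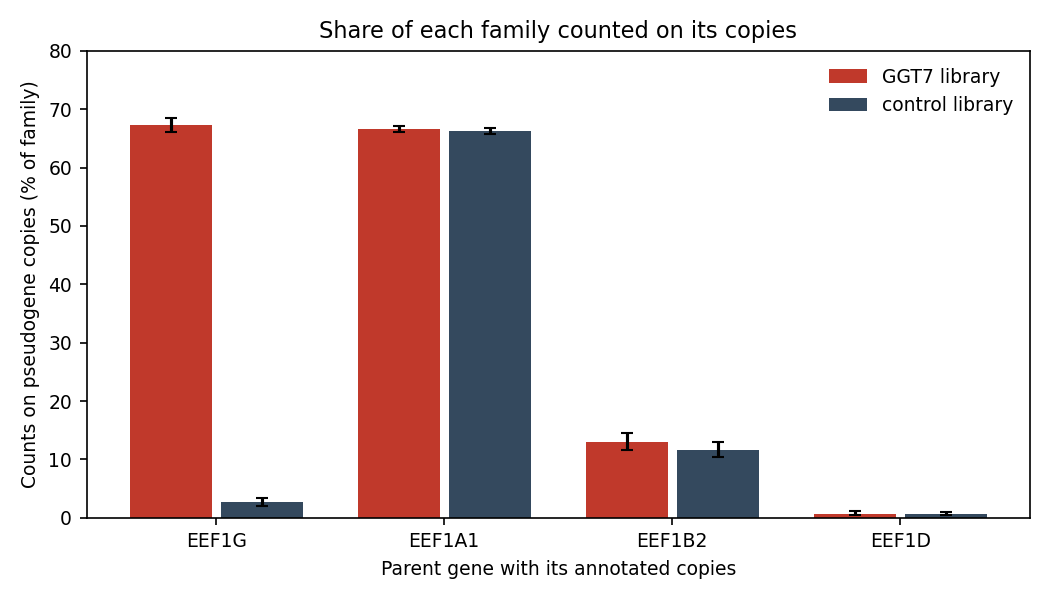
Percent of the counts of each family (parent and its annotated copies) that lie on the copies, GGT7 library (red) left of control library (dark), with exact 95% binomial intervals. EEF1A1, EEF1B2 and EEF1D have like shares in both libraries, while EEF1G has 67.3% in the GGT7 library and 2.71% in the control library.

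**Figure D5:**
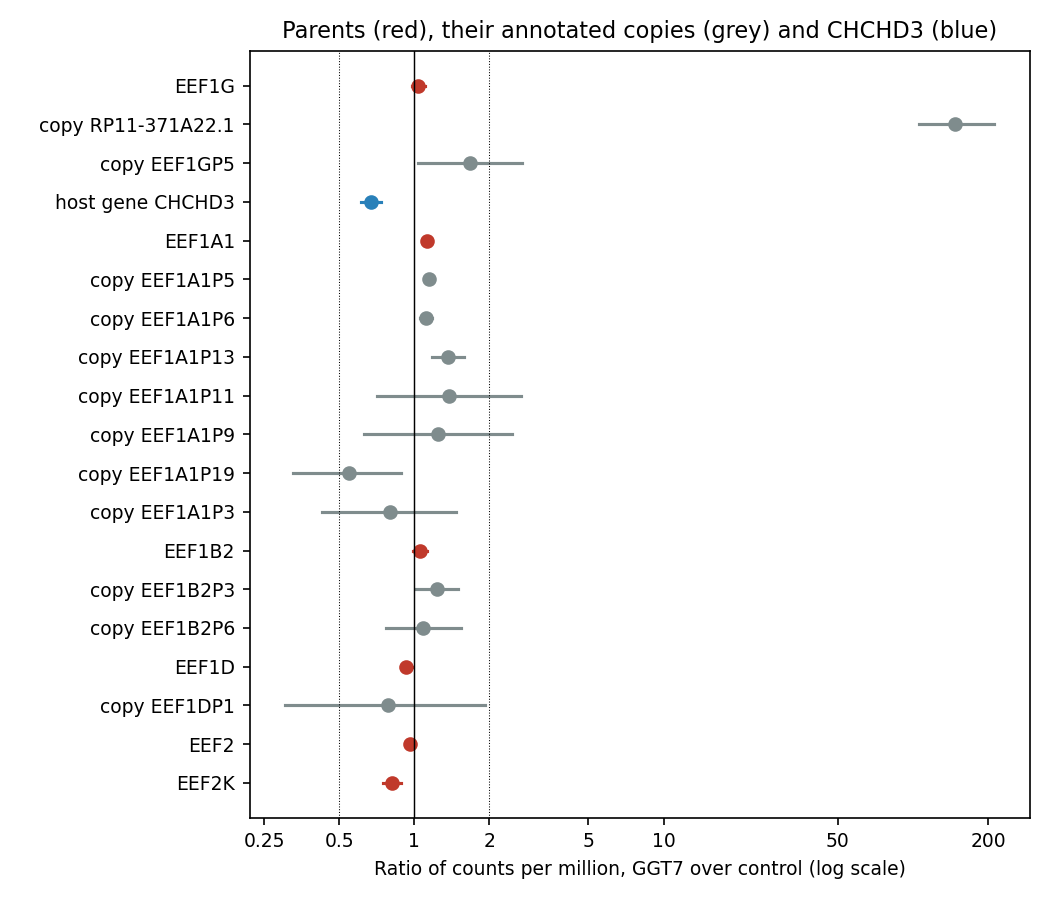
Ratio of CPM, GGT7 over control, on a log axis with exact 95% intervals, for the coding members (red), their measured copies ordered by identity (grey) and CHCHD3 (blue); dotted lines mark 2-fold. RP11-371A22.1 at 147-fold is the only feature beyond 2-fold.

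The other genes of translation were described from lists, given as the number of genes past the fold limits and the median difference, both on the log2 scale of (FPKM + 1), next to -0.03 over all measured genes. Within 1.5-fold lay 91.1% of all measured genes and 94.2% of measured protein-coding genes, so nothing is read from lists with few genes past it. Of the further parts of the eEF1 complex and its isoforms, none of 3 reached 1.5-fold. EEF1A2, the eEF1A isoform of nerve and muscle, had 5533 counts in the GGT7 library and 6981 in the control library, 1.04-fold (1.00 to 1.08). EEF1E1, a scaffold protein of the tRNA synthetase complex, was 1.05-fold (0.898 to 1.22), and VARS, the valyl-tRNA synthetase that binds the eEF1 complex, was at 23.5 FPKM in the GGT7 library and 26.6 FPKM in the control library. Of 14 enzymes that modify eEF1A, eEF2 or EIF5A, none reached 1.5-fold on the log2 scale and the median was 0.00. As a ratio of counts DPH2, which acts in diphthamide synthesis, was past that size, with 288 counts in the GGT7 library and 571 in the control library, 1.51-fold lower (1.31 to 1.75). At the ends of the list were METTL13, an eEF1A methyltransferase, at 6.13 FPKM in the GGT7 library and 8.92 in the control library, and DPH3, needed for the diphthamide of eEF2, at 5.18 and 3.85 FPKM in the same order. EEF2KMT, which methylates eEF2, had 201 counts in the GGT7 library and 188 in the control library, 1.40-fold higher (1.14 to 1.72).

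Of 9 other cytosolic factors linked to elongation, 1 was 1.5-fold or more higher on the log2 scale and the median was 0.02. It was GTPBP1, a GTPase related to eEF1A, with 759 counts in the GGT7 library and 548 in the control library, 1.81-fold higher (1.62 to 2.03) as a ratio of counts. The related GTPBP2 was just inside the limit at 0.58 on the log2 scale and past it as a ratio, with 2092 counts in the GGT7 library and 1789 in the control library, 1.53-fold higher (1.44 to 1.63). ABCF3 was lowest, at 2.71 FPKM in the GGT7 library and 3.23 FPKM in the control library, and EEFSEC, the elongation factor for selenocysteine, was 1.04-fold (0.876 to 1.24). Of 12 genes of termination, recycling and ribosome rescue none reached 1.5-fold on the log2 scale, with a median of 0.00. ZNF598, the ligase that marks collided ribosomes, was highest at 8.0 FPKM in the GGT7 library and 5.03 in the control library, 1.59-fold (1.46 to 1.74) as a ratio of counts, and PELO, a rescue factor, was lowest at 14.5 and 16.6 FPKM in the same order. None of 10 mitochondrial translation factors reached 1.5-fold, with a median of 0.06, from MTRF1L, a mitochondrial release factor, at 3.75 FPKM in the GGT7 library and 2.60 in the control library, to TSFM, a mitochondrial exchange factor, at 5.42 and 7.74 FPKM in the same order.

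Of 39 measured initiation factors and their binding proteins, 38 lay within 1.5-fold and 1 was lower, with a median of 0.03. The lower gene was EIF4E, which encodes the cap-binding protein, with 196 counts in the GGT7 library and 613 in the control library, 2.39-fold lower (2.03 to 2.82) as a ratio of counts and -0.81 on the log2 scale. EIF4EBP1, an inhibitor of that protein, was at the other end with 709 counts in the GGT7 library and 668 in the control library, 1.39-fold higher (1.25 to 1.55). Of 20 genes for regulators of EEF2K, 1 was 1.5-fold or more higher, and the median was -0.07. It was CALM2, one of the genes for calmodulin, with 3181 counts in the GGT7 library and 2279 in the control library, 1.83-fold higher (1.73 to 1.93). MAPK14, the p38 kinase, was lowest at 8.42 FPKM in the GGT7 library and 11.5 FPKM in the control library.

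Like mRNAs for ribosomal proteins, those of the elongation factors carry a terminal oligopyrimidine tract (TOP), through which growth signals control their translation. Of 15 other TOP mRNAs outside the ribosome none reached 1.5-fold, with a median of 0.03, between GNB2L1 at 36 FPKM in the GGT7 library and 28.6 in the control library and HNRNPA1 at 23.9 and 28.0 FPKM in the same order. Of 82 measured genes for cytosolic ribosomal proteins 79 lay within 1.5-fold, with a median of 0.04. Of the rest, 2 were higher, 1 of them by 2-fold or more, and 1 was lower.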

How the data were processed

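The deposited table holds a count and an FPKM per gene for each library. Each intact row of the authors' table gives a whole count per library, handled here as an estimated count because 1 broken line holds shifted cells. The deposited FPKM is FPKM in every intact row, per the file headers. Tools listed in the submitters' processing notes, with no roles, are edgeR, StringTie 1.3.0 and HISAT2, and the build is GRCh38. The counting tool, its strand setting and the read length were not stated. Of 23378 lines, 2 were left out as broken, 23 symbols turned into dates were restored, and rows that share a symbol were summed.

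A difference is the log2 of GGT7 over control after adding 1 to both FPKM values, so changes of low genes are understated. Ratios are of counts scaled to the library totals, with exact conditional (Clopper-Pearson) 95% intervals. Genes with 1 FPKM or more in the higher library count as measured. No test between groups was run. Copies were sought with BLAST 2.17.0 and aligned with biopython 1.88, and positions and sequences come from GENCODE 29. The members and lists were chosen with earlier results of these data known. The text names all members, their copies, other genes with EEF in the name, genes at the ends of each list, and neighbours; IL1A, RPL17-C18orf32, CYCSP24, DPH2, GTPBP2 and copies below 1 FPKM were added after their values were seen, and GGT7 and the cell type markers serve as checks of the libraries. Protein sequences were not used here. Alternatives were other pseudocounts, filters, fold limits and scalings (edgeR 4.0.16, DESeq2 1.42.0), CPM, and copies summed with their parent; the merged exon length was added after seeing the data. The intervals and a 2-fold rule on ratios of counts were run on simulated Poisson counts, which hold counting error only. The rule on FPKM + 1 with the 1 FPKM filter was not simulated. Python 3.11.15, scipy 1.17.1 and R 4.3.3 were used.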

Additional observations from a re-analysis of the deposited data

How the results depend on the processing

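RP11-371A22.1 was rank 1 and the only member past the fold limit under the 11 alternatives in which members were counted one by one: pseudocounts, scalings, CPM, exon length, filters and the 1.5-fold limit. Its log2 difference was 7.13 with a pseudocount of 0.1 and 5.41 with a pseudocount of 5, which is added to a control level of 1.98 FPKM, and it lay between 6.62 and 6.74 under the other settings. The difference of EEF1G was between 0.05 and 0.09 under pseudocounts, scalings, CPM and the merged exon length, and 1.61, past 2-fold, with its copies summed, where the counts of RP11-371A22.1 enter by construction. The summed ratio of parent and pseudogene lay between 3.10 and 3.19 across scalings. No member changed sign under any setting, and the scalings moved all genes by at most 0.04 on the log2 scale. Under the median ratio and upper quartile scalings, EEF1A1 (0.205 and 0.208) and EEF2 (-0.011 and -0.007) left their main intervals. All intervals given hold for scaling to the library totals. Whether those of EEF1G, EEF1B2, EEF1D and EEF2 include no change depends on the scaling. Over all genes, 122 were 2-fold or more higher and 165 lower, against 349 and 486 with a pseudocount of 0.1, 29 and 24 with a pseudocount of 5, 60 and 64 at 5 FPKM, and 215 and 286 with CPM. No paired analysis was possible because each group holds 1 library, and no library could be left out. Depth limits the copies with few counts and the control level of RP11-371A22.1, whose 35 counts have an exact Poisson interval of 24.4 to 48.7.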

Other observations

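Among 1014 measured processed pseudogenes, a rise of 2-fold or more was seen for 9 (0.888%) and a fall of that size for 25 (2.47%), with a median log2 difference of -0.03, as over all measured genes. The processed pseudogene next to RP11-371A22.1 in rise was CYCSP24, with 18 counts in the GGT7 library and 6 in the control library, 3.93-fold higher (1.49 to 12.1), and a log2 difference of 1.44 beside the 6.62 of RP11-371A22.1. Within 1.5-fold lay 82.5% of measured processed pseudogenes and 94.2% of measured protein-coding genes. The limit of 1 FPKM admits short features with few counts, such as CYCSP24 with its 316 bases. The part of counting error in these shares was not tested.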
